A study of Mus musculus with 9 samples.

Results

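The comparison described here set subcutaneous fat of mice labelled homozygous for an endothelial AGO1 knockout (Homo KO) against fat of mice labelled heterozygous (Hete KO). Its members are the 6 knockout libraries of a set of 9, with 3 libraries of each knockout genotype, chosen by their labels alone, and the 3 wild-type libraries (WT) serve as the reference level. All 9 came from C57BL/6 mice aged 24 weeks, and all were bulk RNA-seq libraries of total RNA from tissue frozen in liquid nitrogen. The question was whether the second knockout allele added to what the first did. The sources used here do not give the promoter that drives the recombinase, the exons removed, the sex, the litters or the hour of sampling, and the labels do not say whether the 3 libraries of a group are 3 separate mice. The p-values below therefore measure the spread between these libraries, which may be partly technical.

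Argonaute proteins hold a microRNA and bring it to messenger RNAs with a matching site, which are then translated less and broken down sooner. Mammals have a small family of them, of which Ago2 is the main one able to cut its target, while Ago1, Ago3 and Ago4 act mostly through TNRC6 scaffold proteins and the deadenylases these recruit. Endothelial cells line the capillaries that run between adipocytes, and they pass fatty acids, hormones and immune cells into fat. They are a minority of the cells in whole fat, so a whole-tissue library reads a gene lost in them alone against a background of the same gene in every other cell type.

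The libraries held between 20843427 and 28252001 estimated counts, and 17968 genes had enough counts to be tested. All 9 expressed the adipocyte genes Adipoq, Plin1 and Fabp4 and the endothelial genes Pecam1 and Cdh5 at high levels, and all 9 expressed the Y-linked genes Kdm5d and Ddx3y. Transcripts of skeletal muscle set some libraries apart. In Hete KO 2, 9.51% of the counts fell on a list of 22 muscle genes, against 0.44% in Hete KO 1, 0.12% in Hete KO 3 and between 0.02% and 0.09% in the 3 Homo KO libraries. WT 1 and WT 2 held 3.53% and 2.63%. Results that rest on Hete KO 2 are therefore given with and without it. In bulk tissue, fewer cells of a type and less RNA per cell cannot be told apart.

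Ago1 itself was read first. The gene lies on the minus strand of chromosome 4 (GRCm38, chr4:126435012-126468583). Its level was 51.2, 59.7 and 60.1 CPM (counts relative to the scaled size of the library) in the 3 Hete KO libraries and 62.2, 58.6 and 25.8 CPM in the 3 Homo KO libraries, against 69.9, 63.9 and 63.4 CPM in WT. Homo KO 3 stood well below every other library, whereas Homo KO 1 was above all 3 Hete KO libraries, so the genotypes overlapped. The difference of Homo KO minus Hete KO was -0.22 on the log2 scale (95% interval -0.81 to 0.37), and an exact two-sided permutation test over the 6 libraries gave p = 0.8, where 3 against 3 cannot go below 0.1. Without Homo KO 3 the difference turned positive, at 0.07. Ago1 in whole fat thus did not separate homozygous from heterozygous libraries, and it is no check of the labels. A knockout confined to endothelium, as labelled, would leave the gene in other cell types, and the removed exons are not known here. Why Homo KO 3 alone was low was not tested.

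The same library stood apart at the level of single transcripts. The 7227-base transcript that carried most Ago1 counts had 906, 1062 and 1029 estimated counts in Hete KO compared with 1104, 953 and 475 in Homo KO. The next in count, of 3606 bases, had 387, 259 and 105 in Hete KO against 182, 166 and 118 in Homo KO. The first of these was low in Homo KO 3 alone, and the second varied as much within the heterozygotes as between the genotypes.

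In the count fit, the 3 other Argonaute genes differed little between the knockouts. On the length-corrected TPM scale (a transcript's share of all transcripts), Ago2 was the most abundant member, at 32.4 ± 4.45 in Hete KO and 38.6 ± 1.12 in Homo KO (SD, n = 3 each), and Ago4 the least, at 6.63 ± 1.42 and 6.27 ± 1.54. Ago1 stood at 18.0 ± 0.435 and 15.3 ± 6.77 TPM, and Ago3 at 17.6 ± 3.27 and 16.4 ± 1.41, so these neighbours in the order did not differ beyond their spread. By library, Ago2 read 245, 205 and 211 CPM in Hete KO compared with 227, 230.1 and 238 in Homo KO, inside the heterozygous range. Ago3 read 83.5, 93.8 and 94.3 CPM in Hete KO against 85.2, 87.6 and 79.8 in Homo KO. Ago4 read 12.2, 13.0 and 14.5 CPM in Hete KO compared with 14.7, 14.4 and 16.3 in Homo KO, which overlapped through Hete KO 3. In the count fit, Homo KO minus Hete KO was 0.07 for Ago2 (95% interval -0.16 to 0.30), -0.10 for Ago3 (-0.41 to 0.20) and 0.19 for Ago4 (-0.10 to 0.48). None of these intervals reaches a 2-fold difference. None of the 3 showed a higher level in the homozygotes that passed the test.

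**Figure D1:**
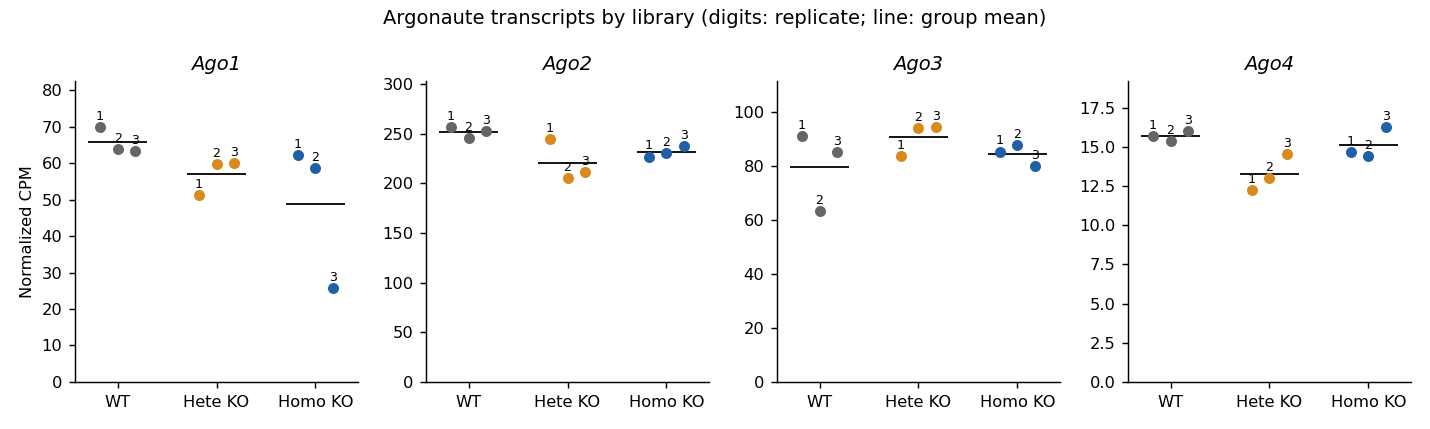
Level of the 4 Argonaute genes in each library, in CPM, with 1 panel per gene, points for libraries (digits give the replicate) and lines for group means. Homo KO 3 sits alone at the bottom of the Ago1 panel, at 25.8 CPM, while the other 5 knockout libraries lie between 51.2 and 62.2.

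Across all genes, no difference between homozygous and heterozygous fat passed the test. With edgeR's quasi-likelihood test, 0 of 17968 genes had a Benjamini-Hochberg adjusted p below 0.05, and the smallest adjusted p was 0.899. At an unadjusted p below 0.05 there were 978 genes (5.44%), where 898 would be counted by chance alone. Of these, 404 were higher in Homo KO (2.25% of genes tested) and 574 were lower (3.19%). That number of 978 rested on single libraries, at 454 without Hete KO 2, 460 without Homo KO 2 and 1857 without Hete KO 1. Limma on TPM values called 0 genes and DESeq2 called 8 (0.0447%). The edgeR count stayed at 0 with each of the 9 libraries left out in turn.

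The libraries themselves did not sort cleanly by knockout genotype. The median absolute log2 difference over genes was 0.197 to 0.301 in the 9 pairs of 1 Hete KO and 1 Homo KO library, 0.25 to 0.299 within Hete KO and 0.188 to 0.266 within Homo KO. Pairs across the genotypes were thus no further apart than pairs within Hete KO. The whole distribution of differences was centred near 0, with a median log2 value of 0.003, and 50.5% of genes were higher in Homo KO.

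The precision sets what this comparison could have missed. The 95% interval of Homo KO minus Hete KO lay within 2-fold in both directions for 12065 of the 17968 genes (67.1%). Among the 9636 genes with a mean of at least 10 CPM it did so for 9036 (93.8%), with a median half-width of 0.34 on the log2 scale. For most genes of middle and high expression a 2-fold difference between the knockouts was therefore outside the interval, whereas for many low genes it was not. The wider intervals of low genes are part of what 3 libraries a group at this depth allow.

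The 16 genes next described are those with the smallest p, 8 in each direction, among genes whose 3 Homo KO and 3 Hete KO libraries do not overlap. They were chosen for that difference, none passed the adjusted test, and 11.4% of all tested genes had no overlap. The choice did not use the WT values directly. In 12 of the 16 the WT mean was on the Homo KO side, against 57.6% of all tested genes and 50.8% of the 978 genes with an unadjusted p below 0.05. Pairs of libraries differed by 0.25 to 0.299 within Hete KO and by 0.188 to 0.266 within Homo KO. Where Hete KO varies more, a choice on the difference between the knockouts favours genes with Hete KO apart from WT. The count of 12 is therefore not independent of the choice, and the size of this effect was not tested.

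Among the genes higher in Homo KO, Slc40a1, which encodes the iron exporter ferroportin, read 17.2, 21.9 and 14.6 CPM in Hete KO compared with 35.4, 32.5 and 27.7 CPM in Homo KO. WT read 25.4, 34.2 and 28.7 CPM, so the homozygotes sat with WT and the heterozygotes below both. The log2 difference between the knockouts was 0.83 (95% interval 0.43 to 1.23). Marcksl1, a membrane-bound regulator of actin, read 4.78, 4.22 and 5.15 CPM in Hete KO compared with 8.83, 7.89 and 8.95 in Homo KO, with WT at 8.85, 8.78 and 9.02. All 3 heterozygotes were below the 6 other libraries, which lay close together.

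Tmem86a, an enzyme that breaks down lysoplasmalogens, read 8.20, 8.14 and 6.27 CPM in Hete KO against 15.4, 14.8 and 12.3 in Homo KO, with WT at 14.8, 18.9 and 16.6. Eps8l1, a relative of the actin regulator Eps8, read 0.67, 1.94 and 1.22 CPM in Hete KO compared with 5.62, 5.13 and 2.79 in Homo KO, with WT at 5.51, 3.93 and 7.67. These are 2 more genes whose heterozygous libraries lay below both other groups. Pdgfra, the receptor tyrosine kinase that marks adipocyte progenitors and fibroblasts, read 95.6, 87.2 and 93.5 CPM in Hete KO, 121, 118 and 132 in Homo KO and 129, 137 and 128 in WT, a log2 difference of 0.42 (0.21 to 0.63) between the knockouts.

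Pde1b, a calcium-dependent phosphodiesterase of cyclic nucleotides, read 17.5, 17.4 and 17.2 CPM in Hete KO against 25.1, 24.9 and 22.1 in Homo KO, with WT at 22.3, 21.6 and 21.8. Clca2, a regulator of calcium-activated chloride currents, read 4.005, 2.70 and 2.09 CPM in Hete KO compared with 9.69, 5.85 and 6.16 in Homo KO, with WT at 4.09, 4.69 and 3.49. For Clca2 the Homo KO libraries were the ones apart from the rest. Taf9, a subunit of the general transcription factor TFIID, read 5.38, 2.91 and 2.97 CPM in Hete KO, 8.43, 10.98 and 7.68 in Homo KO and 7.06, 4.65 and 7.59 in WT. Taf9 shares exons with a neighbouring gene, and how the counting split their reads is not known here.

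In the other direction, Eva1c read 9.35, 7.75 and 12.3 CPM in Hete KO against 4.53, 3.38 and 5.92 in Homo KO, with WT at 3.88, 3.29 and 3.21. Hspb7, a small heat shock protein best known from heart and skeletal muscle, read 13.5, 27.9 and 46.1 CPM in Hete KO compared with 10.3, 8.79 and 11.8 in Homo KO, with WT at 17.1, 15.1 and 10.6. Hspb7 was highest in Hete KO 3, a library with few muscle transcripts, and its log2 difference was -1.50 with all libraries and -1.53 without Hete KO 2. Dnajc12, a J-domain co-chaperone, read 17.0, 19.0 and 25.04 CPM in Hete KO, 14.6, 12.2 and 12.5 in Homo KO and 12.1, 13.3 and 12.4 in WT.

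Upf3b, a factor of nonsense-mediated mRNA decay, read 27.8, 29.6 and 33.6 CPM in Hete KO, 22.8, 23.0 and 20.7 in Homo KO and 26.3, 21.7 and 23.7 in WT. Abcf2, an ATP-binding protein of the ABC family without a membrane part, read 64.5, 64.3 and 54.4 CPM in Hete KO, 45.1, 48.2 and 49.6 in Homo KO and 57.6, 58.6 and 59.7 in WT. Abcf2 was low in the homozygotes relative to both other groups, where Upf3b was high in the heterozygotes. Clca3a1, another chloride current regulator, read 3.56, 2.70 and 2.67 CPM in Hete KO, 1.495, 0.95 and 0.86 in Homo KO and 1.92, 1.48 and 1.93 in WT, so the WT mean lay between the knockouts. The olfactory receptor gene Olfr239 likewise had its WT mean between them, at 3.52, 3.37 and 4.47 CPM in Hete KO, 2.31, 1.14 and 1.44 in Homo KO and 3.17, 2.36 and 2.03 in WT.

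The eighth gene lower in Homo KO was Myh1, a fast myosin heavy chain of skeletal muscle, at 58.0, 30.8 and 1.70 CPM in Hete KO, 1.36, 0.86 and 0.53 in Homo KO and 7.35, 16.9 and 0.57 in WT. It followed the other muscle transcripts only loosely, since Hete KO 1 rather than Hete KO 2 was highest. All 22 tested muscle genes were among the 574 genes lower in Homo KO at an unadjusted p below 0.05, with a median log2 difference of -5.86. Without Hete KO 2 their median was -2.53, with 3 of 22 lower at an unadjusted p below 0.05. In 394 of those 574 genes Hete KO 2 was the highest of the 6 knockout libraries. Without Hete KO 2 the count of lower genes was 201 of 18497 tested (1.09%) and that of higher genes 253 (1.37%), so the surplus of lower genes over higher ones was not kept.

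**Figure D2:**
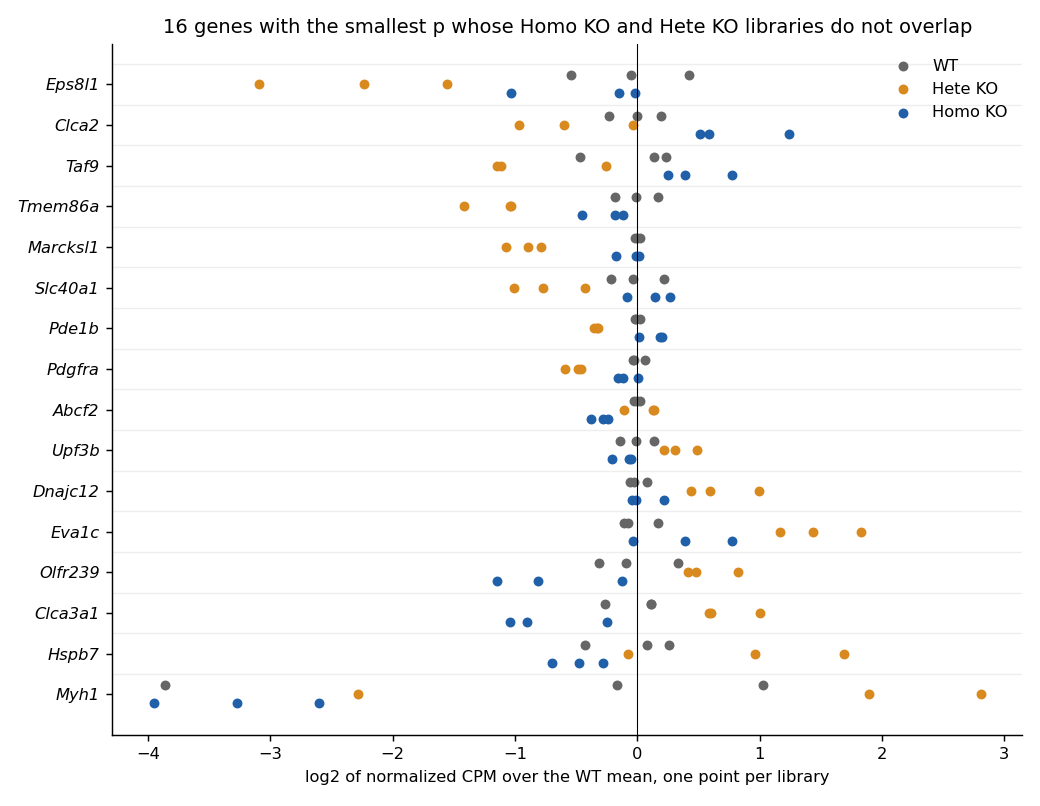
The 16 genes of smallest p with non-overlapping knockout libraries, 1 row per gene, showing each of the 9 libraries as log2 CPM relative to the WT mean. For Marcksl1, Tmem86a and Pde1b the 3 Hete KO points lie left of the Homo KO and WT points, and for Abcf2 the Homo KO points are the ones apart.

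The 8 genes called by DESeq2 are named here after their values were seen. Tmem86a, Slc40a1, Marcksl1 and Hspb7 are among those above, with DESeq2 adjusted p of 0.0283, 0.0468, 0.0468 and 0.0468. The predicted gene Gm10273 had the smallest, at 9.4e-06, and read 38.7, 48.1 and 34.3 CPM in Hete KO, 13.8, 18.7 and 10.02 in Homo KO and 30.9, 48.0 and 39.5 in WT, so the homozygotes alone were low. Its edgeR adjusted p was 0.899. The 3 remaining genes were low in every library. Tmprss2, a membrane serine protease of epithelia, read at most 0.04 CPM in Hete KO against 2.58, 1.24 and 0.37 in Homo KO. Atp2b3, a plasma membrane calcium pump, reached 3.25 CPM in the muscle-rich Hete KO 2, and Gm20521 was at 0 in the 3 Homo KO libraries and between 0.44 and 1.31 CPM in Hete KO.

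A different view starts from genes that differ between the knockouts as a whole and WT. This contrast is separate from the difference between the 2 knockout genotypes only where both vary alike between libraries. The mean of both knockouts against WT gave 421 genes past an edgeR adjusted p of 0.05 (2.34% of those tested), 273 lower and 148 higher in the knockouts. That number rested on single libraries. It was 2 or 3 without WT 2, Hete KO 3, Homo KO 2 or Homo KO 3, 51 without WT 3, 53 without Homo KO 1, 237 without Hete KO 2, 750 without WT 1 and 1095 without Hete KO 1. Of the 421, 8 belong to a list of 24 liver genes whose share of counts was 0.229% to 0.456% in WT and 0.109% to 0.172% in the knockouts, and 0 belong to the muscle list. The part that liver transcripts or single libraries play in the 421 was not tested.

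These genes were chosen for a difference from WT, so its size, and the side of WT on which the knockouts lie, are given only as a description. Between the knockouts, the 95% interval lay within 2-fold for 296 of the 421, beside 67.1% of all tested genes. These were 166 of the 273 lower genes and 130 of the 148 higher ones. The same estimate of the spread entered the choice and these intervals. The median difference of Homo KO minus Hete KO was 0.19 in the 273 genes lower in the knockouts, whose median against WT was -1.12. In the 148 higher genes it was -0.09, beside a median of 0.75 against WT. Homo KO was above Hete KO in 206 of the 273 lower genes and below it in 112 of the 148 higher genes, where 50.5% of all tested genes had a positive difference. In 318 of the 421 (75.5%) the heterozygotes were thus the group further from WT, beside 57.6% of all tested genes. Without Hete KO 2 the counts were 174 of 273 and 92 of 148. Pairs of libraries differed by 0.25 to 0.299 within Hete KO and by 0.188 to 0.266 within Homo KO. Where Hete KO varies more, a choice on the mean of both knockouts favours genes with Hete KO further out. The share of 75.5% is therefore not independent of the choice, and the size of this effect was not tested.

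The gene with the smallest p among those lower in the knockouts, with at least 1 CPM, was Ass1, argininosuccinate synthase, which recycles citrulline to arginine for nitric oxide synthesis and works in the urea cycle of the liver. It read 36.2, 48.0 and 43.3 CPM in WT, 6.86, 2.40 and 5.83 in Hete KO compared with 6.34, 4.71 and 5.71 in Homo KO. The knockouts overlapped entirely, with a log2 difference of 0.15 (95% interval -0.56 to 0.86) and of -0.18 without Hete KO 2. Hapln4, a hyaluronan link protein, read 4.43, 6.09 and 5.56 CPM in WT, 0.70, 0.46 and 0.58 in Hete KO against 1.27, 1.14 and 0.99 in Homo KO. The difference between knockouts there was 0.94 on the log2 scale (0.28 to 1.61), with all 3 homozygotes nearer to WT.

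Serpina3m, a secreted serine protease inhibitor, read 5.34, 7.25 and 7.92 CPM in WT, 1.30, 0.59 and 1.17 in Hete KO compared with 2.54, 2.52 and 1.97 in Homo KO. Its family has near-identical copies, so its counts are uncertain. Tfr2, the liver-type transferrin receptor, read 20.8, 30.4 and 30.3 CPM in WT, 6.97, 4.72 and 4.28 in Hete KO against 10.46, 10.1 and 4.44 in Homo KO. Slc6a6, the taurine transporter, read 359, 412 and 386 CPM in WT, 166, 188 and 155 in Hete KO compared with 244, 211 and 162 in Homo KO. For Tfr2 and Slc6a6 the knockouts overlapped through Homo KO 3, which lay at the heterozygous level while Homo KO 1 and Homo KO 2 were higher.

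Bmp1, the protease that trims procollagen, and Hist1h2af, a histone gene, were also lower in the knockouts. Bmp1 read 62.1, 71.3 and 75.1 CPM in WT, 38.5, 34.1 and 37.1 in Hete KO against 44.8, 41.4 and 41.9 in Homo KO. The log2 differences between knockouts were 0.22 for Bmp1 and 0.45 for Hist1h2af, beside -0.81 and -1.70 for the knockouts against WT.

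Among genes higher in the knockouts, Nnat, the imprinted gene of neuronatin, read 172, 166 and 238 CPM in WT, 430, 649 and 524 in Hete KO compared with 442, 513 and 666 in Homo KO. Here the genotypes were interleaved, at a log2 difference of 0.02 (95% interval -0.45 to 0.48) that took either sign as single libraries were left out. Snhg11, a host transcript of small nucleolar RNAs, read 49.8, 39.6 and 50.9 CPM in WT, 88.4, 95.1 and 118 in Hete KO against 76.0, 78.8 and 76.5 in Homo KO. Thap2, a zinc finger gene, read 15.2, 13.4 and 13.4 CPM in WT, 25.7, 26.6 and 27.4 in Hete KO compared with 20.8, 20.6 and 22.2 in Homo KO. In both Snhg11 and Thap2 the homozygotes lay between WT and the heterozygotes.

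The other higher genes were Gulp1, an adaptor of engulfment, the choline transporter-like Slc44a3, the silencing factor Zfp809, the termination factor Pcf11 and the laminin chain Lama3. Their log2 differences between knockouts were -0.13, -0.28, -0.26, -0.12 and -0.16, and their differences from WT were 0.998, 0.88, 0.96, 0.71 and 1.06. In each of the 5 the homozygotes had the smaller departure from WT in the fit, and none of the 5 passed the test between the knockouts.

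**Figure D3:**
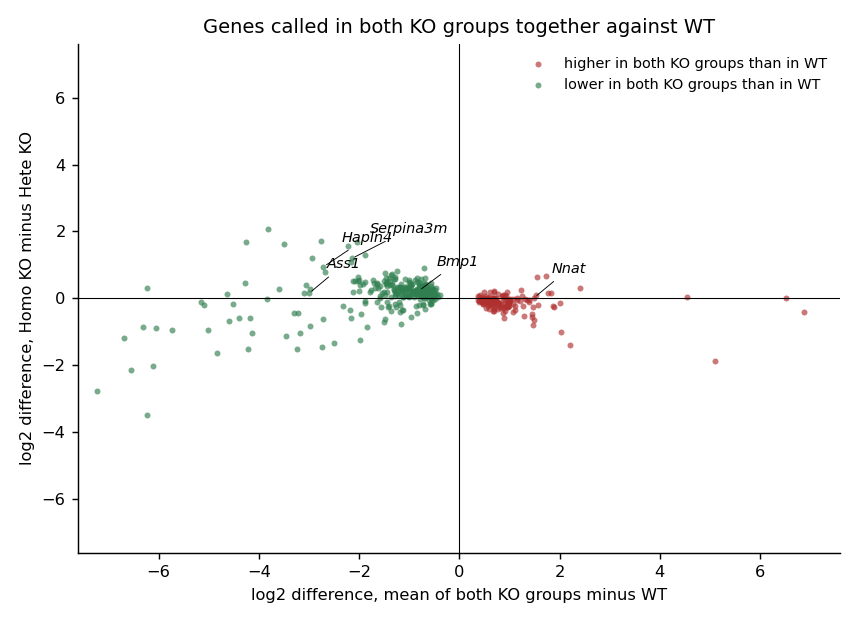
Homo KO minus Hete KO (log2, vertical) against the mean of both knockouts minus WT (log2, horizontal) for the 421 genes past the adjusted threshold on the horizontal contrast, 1 point per gene. Most of the 273 points on the left lie above 0 and most of the 148 on the right lie below it.

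The genes through which Argonaute acts were as alike between the knockouts as the Argonautes. Of 19 tested members of a list of microRNA processing and silencing factors, 9 were higher and 10 lower in Homo KO, 0 had an unadjusted p below 0.05, and the median log2 difference was -0.02. The split varied with the libraries included, at 5 of 19 positive without Hete KO 2 (median -0.02) and 12 of 19 without Homo KO 1 (median 0.02). All 19 had a 95% interval within 2-fold, as had 93.8% of genes with at least 10 CPM. Dicer1, which cuts precursors to mature microRNAs, read 124, 136 and 123 CPM in Hete KO against 118, 119 and 129 in Homo KO, a log2 difference of -0.06 (95% interval -0.26 to 0.14). Drosha, the nuclear enzyme of the step before, read 69.9, 71.0 and 71.3 CPM in Hete KO compared with 57.0, 65.2 and 67.2 in Homo KO, at -0.16 (-0.44 to 0.11). Tnrc6c, 1 of the scaffolds that Argonaute binds, read 90.2, 108 and 99.4 CPM in Hete KO against 91.9, 90.9 and 88.3 in Homo KO, at -0.13 (-0.34 to 0.08). Drosha was lower in all 3 homozygotes, but the interval of its difference included 0.

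Endothelial genes, which stand for the cell type the knockout is aimed at, were mostly above the heterozygous level in Homo KO. Of 24 tested, 23 had a positive difference, with a median of 0.21 beside 0.003 over all genes. At an unadjusted p below 0.05, 2 were higher and 0 lower (background 2.25% and 3.19%), and 0 passed the adjusted test. Pecam1, the junction molecule CD31, read 184, 167 and 175 CPM in Hete KO, 244, 216 and 173 in Homo KO and 196, 221 and 175 in WT. The genotypes overlapped through Homo KO 3, and the log2 difference was 0.27 (95% interval -0.05 to 0.58). The 2 genes were the transcription factors Sox18, at 4.75, 6.41 and 5.74 CPM in Hete KO compared with 12.7, 8.94 and 8.01 in Homo KO, and Erg, at 4.41, 3.37 and 3.94 and at 7.75, 6.13 and 5.30.

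In Sox18 and Erg, as in Pecam1, Homo KO 1 was highest of the 6. The endothelial list as a whole took 0.262% of counts in Homo KO 1, 0.211% in Homo KO 2 and 0.178% in Homo KO 3, against 0.183% to 0.199% in Hete KO and 0.178% to 0.226% in WT. Without Homo KO 1 its median was 0.04 with 13 of 24 positive, with 0 higher at an unadjusted p below 0.05, and without Homo KO 3 it was 0.37 with 7 higher. The higher endothelial values thus rested on Homo KO 1, and the homozygous libraries spanned more than the gap between genotypes.

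The apelin pair was also higher in Homo KO than in Hete KO. Apln, the secreted peptide of endothelial tip cells, read 26.9, 16.1 and 15.0 CPM in Hete KO against 48.8, 37.3 and 32.9 in Homo KO, with WT at 31.8, 44.9 and 29.5, and its log2 difference of 1.03 (95% interval 0.46 to 1.60) was the highest of a list of 20 pro-angiogenic genes. Its receptor Aplnr read 21.4, 20.1 and 18.5 CPM in Hete KO, 42.9, 32.8 and 26.2 in Homo KO and 43.2, 54.4 and 30.7 in WT, at 0.76 (0.26 to 1.26). For ligand and receptor alike the 3 heterozygotes were below the 6 other libraries. The whole list, with Apln and Aplnr in it, had a median of 0.18 and 13 of 20 positive, beside 50.5% of all genes. Vegfa, the main growth factor of vessels, read 270, 334 and 209 CPM in Hete KO compared with 229, 224 and 238 in Homo KO, at -0.23 (-0.58 to 0.11), or -0.05 without Hete KO 2.

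Of 16 anti-angiogenic genes, 13 were positive with a median of 0.25, and 3 were higher and 1 lower at an unadjusted p below 0.05 (background 2.25% and 3.19%). The 3 became 1 without Homo KO 1 or Hete KO 3, 2 without Hete KO 2 or Homo KO 3 and 4 without Hete KO 1, where the median was 0.16. Vash1, a feedback inhibitor made by endothelium, read 6.45, 5.39 and 5.49 CPM in Hete KO against 11.7, 9.08 and 7.89 in Homo KO, with WT at 9.40, 12.8 and 9.41. As with the endothelial genes, Homo KO 1 was the highest of the 6 knockout libraries for Vash1. Thbs1, the secreted inhibitor thrombospondin-1, read 63.0, 101 and 74.6 CPM in Hete KO, 132, 87.7 and 79.8 in Homo KO and 150, 123 and 67.2 in WT. Its range was wide in each genotype, and the log2 difference was 0.32 (-0.34 to 0.99).

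Matrix genes were mostly higher in Homo KO than in Hete KO. Of 30 tested genes for collagens, their crosslinking enzymes and other matrix proteins, 29 were higher in Homo KO, beside 50.5% of all genes. The median log2 difference of the 30 was 0.38. At an unadjusted p below 0.05, 9 of the 30 were higher and 0 lower (background 2.25% and 3.19%). Their share of all counts was 1.88%, 1.06% and 1.43% in Hete KO compared with 1.98%, 1.87% and 1.90% in Homo KO, against 2.25% to 2.61% in WT. Hete KO 1 was close to the homozygotes, and Hete KO 2 was lowest of all 9. Without Hete KO 2 the median was 0.22, with 26 of 30 positive and 2 higher and 1 lower at an unadjusted p below 0.05. Without Hete KO 1 it was 0.65, with 22 higher. The count over all genes also moved, from 978 to 454 without Hete KO 2 and to 1857 without Hete KO 1. The count of 9 was 3 without Hete KO 3, 4 without Homo KO 1 and 5 without Homo KO 2. The size of the matrix difference therefore depended on which heterozygote was included, and the part of muscle tissue in Hete KO 2 was not tested for each gene.

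Col1a2, a chain of type I collagen, read 581, 361 and 442 CPM in Hete KO, 716, 703 and 662 in Homo KO and 751, 1161 and 876 in WT, at 0.59 (95% interval 0.14 to 1.03) between the knockouts and 0.44 without Hete KO 2. Loxl2, a lysyl oxidase that crosslinks collagen, read 110, 68.7 and 71.2 CPM in Hete KO, 127, 121 and 114 in Homo KO and 129, 137 and 118 in WT. Dcn, the proteoglycan decorin, read 299.9, 245 and 286 CPM in Hete KO compared with 346, 359.6 and 363 in Homo KO, with WT at 368, 331 and 356. In Loxl2 and Dcn the homozygotes lay at the WT level, and in Col1a2 below it. Col12a1, the member furthest in the other direction, read 83.5, 16.8 and 43.9 CPM in Hete KO against 36.0, 41.9 and 26.7 in Homo KO, at -0.46 with all libraries and 0.19 without Hete KO 1.

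Progenitor and fibroblast markers gave a median of 0.23 with 12 of 18 positive (background 50.5%). At an unadjusted p below 0.05, 4 of 18 were higher (background 2.25%), Pdgfra among them, or 2 of 18 without Homo KO 1. The 6 negative members included the progenitor markers Dpp4 (-0.10), Pi16 (-0.15) and Wnt2 (-0.07), and Gpx3, the lowest at -0.54. The list thus had no common direction. Icam1, an adhesion molecule of progenitors and of activated endothelium, read 17.8, 15.6 and 17.0 CPM in Hete KO, 27.7, 24.0 and 23.9 in Homo KO and 22.8, 29.6 and 22.0 in WT. Its log2 difference was 0.59 (0.26 to 0.91), and the heterozygotes were again the group apart.

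Among immune cells, macrophage genes had a median of 0.55 with 20 of 23 positive, and 5 higher and 0 lower at an unadjusted p below 0.05 (background 2.25% and 3.19%). The count of 5 was 0 without Homo KO 1, 1 without Hete KO 2, 2 without Hete KO 3, 3 without Homo KO 2, 11 without Hete KO 1 and 12 without Homo KO 3. Tyrobp, an adaptor of activating receptors on myeloid cells, read 4.49, 3.71 and 3.26 CPM in Hete KO, 8.38, 5.47 and 6.12 in Homo KO and 8.81, 12.3 and 7.45 in WT. Csf1r, the receptor for the growth factor that keeps macrophages alive, read 82.4, 57.8 and 58.7 CPM in Hete KO compared with 117, 96.6 and 81.0 in Homo KO, with WT at 122, 149 and 93.3. C1qc, a complement chain made by tissue macrophages, read 18.6, 13.99 and 15.0 CPM in Hete KO against 25.7, 23.0 and 21.1 in Homo KO, with WT at 36.0, 44.0 and 27.2.

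In these 3 genes the order from low to high was Hete KO, Homo KO and WT by group mean. The macrophage difference varied with the libraries included. Leaving out Homo KO 1 lowered the list's median to 0.28, and leaving out Hete KO 1 raised it to 0.72. The summed share of counts, which a few abundant members dominate, was 1.06%, 0.59% and 0.90% in Hete KO compared with 0.81%, 0.91% and 0.97% in Homo KO, so it overlapped between genotypes. The list includes Lpl, which is also among the adipocyte markers, so this sum is not a measure of macrophages alone.

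All 20 interferon-response genes were higher in Homo KO (background 50.5%), with a median of 0.30 and a lowest value of 0.01. At an unadjusted p below 0.05, 4 of the 20 were higher (background 2.25%). Oas1a, a sensor of double-stranded RNA, read 2.71, 1.85 and 1.56 CPM in Hete KO, 4.71, 4.28 and 3.53 in Homo KO and 4.34, 5.33 and 2.82 in WT. Its relative Oas2 read 5.56, 6.70 and 7.001 CPM in Hete KO compared with 18.1, 11.2 and 8.21 in Homo KO, with WT at 7.39, 11.8 and 6.77. In Oas2 the top value came from Homo KO 1, and without that library the list's median was 0.13 with 1 of 20 higher at an unadjusted p below 0.05, a count that was 2 without Hete KO 3. The antigen presentation list had a median of 0.25 with 15 of 16 positive and 5 of 16 higher at an unadjusted p below 0.05 (background 2.25%). Without Hete KO 2 that median was 0.09. The count of 5 was 1 without Hete KO 2 or Hete KO 3, 2 without Homo KO 1, 3 without Homo KO 2 and 8 without Hete KO 1. T and NK cell genes gave a median of 0.40, or 0.24 without Hete KO 2, with 16 of 20 positive. Their summed share was at most 0.0070% of counts in any library, and 1 of the 20 was higher at an unadjusted p below 0.05 (background 2.25%).

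**Figure D4:**
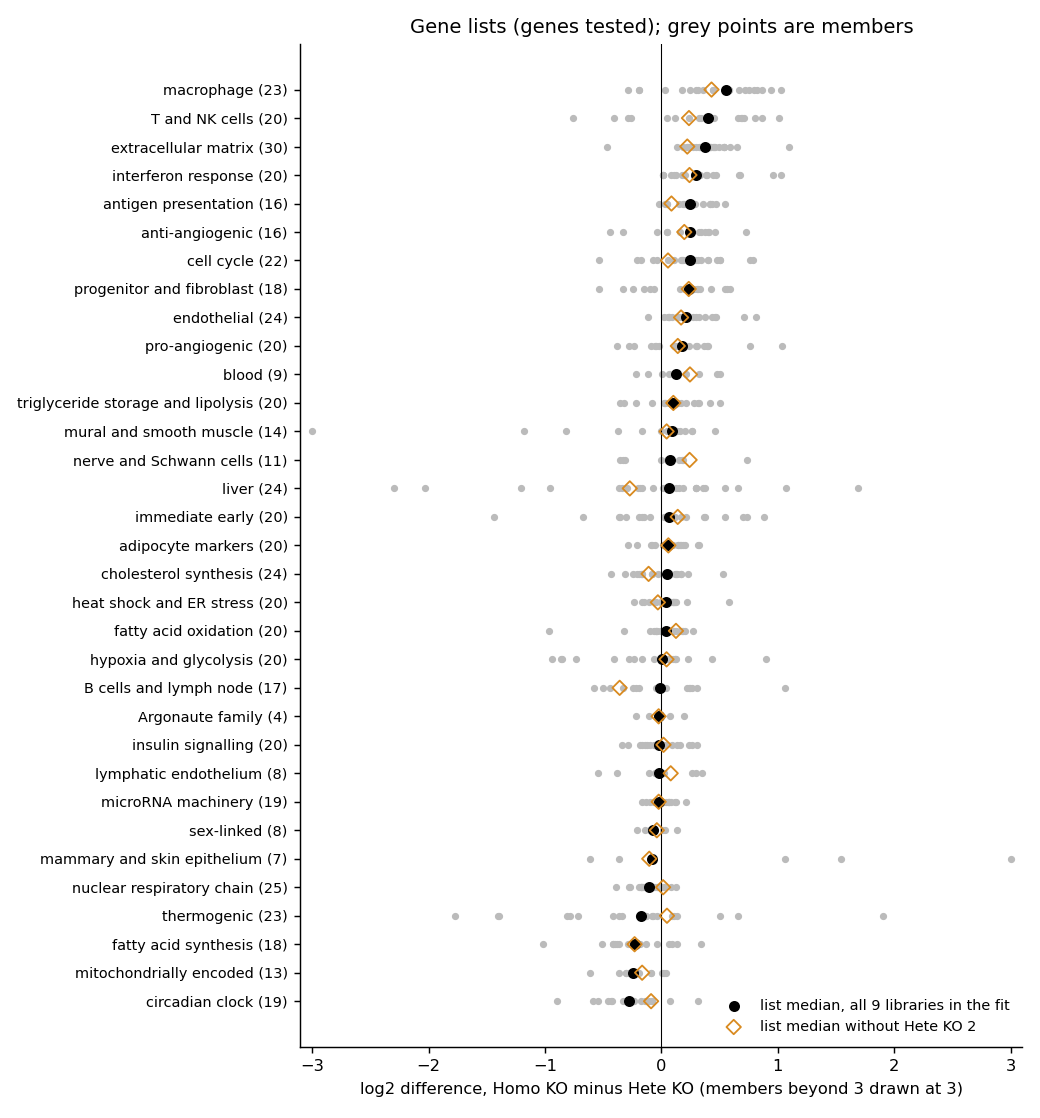
Homo KO minus Hete KO (log2) for the tested members of each gene list except skeletal muscle, with a grey point per gene, a black point at the list's median and an open diamond at its median without Hete KO 2. Macrophage, matrix and interferon-response genes lie mostly to the right of 0 and microRNA machinery is centred at -0.02, while members beyond the axis are drawn at its end.

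Adipocyte identity was close to equal in the knockouts. Of 20 marker genes, 15 were positive with a median of 0.05, 0 had an unadjusted p below 0.05 and 19 had an interval within 2-fold. Adipoq, which encodes the hormone adiponectin, read 1451, 1216 and 1524 CPM in Hete KO against 1238, 1494 and 1564 in Homo KO, at 0.04 (95% interval -0.42 to 0.50), or -0.05 without Hete KO 2. Lep, the gene of the satiety hormone leptin, read 4131, 2340 and 4167 CPM in Hete KO, 4617, 4124 and 4457 in Homo KO and 6468, 5749 and 6948 in WT. All 6 knockout libraries were below WT for Lep, and the difference between knockouts, 0.31, was 0.09 without the low Hete KO 2.

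Thermogenic genes, which adipocytes use to make heat, showed no common direction once Hete KO 2 was left out. With all libraries 17 of 23 were lower in Homo KO, with a median of -0.18, and without Hete KO 2 the median was 0.05 with 15 of 23 positive. Ucp1, the uncoupling protein of brown and beige fat, read 2.45, 29.2 and 0.97 CPM in Hete KO, 1.13, 7.08 and 4.23 in Homo KO and 6.01, 168 and 1.14 in WT. Its values spread over more than the whole gap between genotypes, and the log2 difference was -1.39 (95% interval -5.00 to 2.22), or 1.25 without Hete KO 2. Cidea, a lipid droplet protein of beige fat, was also highest in Hete KO 2 among the knockouts, at 11.2, 26.8 and 10.4 CPM in Hete KO compared with 6.93, 16.1 and 15.3 in Homo KO.

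Ppargc1a, the coactivator that drives mitochondrial genes, read 19.3, 35.6 and 20.8 CPM in Hete KO against 17.7, 22.3 and 26.9 in Homo KO, at -0.18 (95% interval -0.75 to 0.39), or 0.16 without Hete KO 2. Adrb3, the adrenergic receptor of adipocytes that starts lipolysis and heat production, was the 1 thermogenic member with an unadjusted p below 0.05. Without Hete KO 2 there were 0 such members. Adrb3 was also highest in Hete KO 2. It read 105, 139 and 111 CPM in Hete KO, 52.9, 91.2 and 71.2 in Homo KO and 21.4, 46.1 and 57.5 in WT. The order for Adrb3 was thus WT, Homo KO and Hete KO from low to high by group mean, at -0.72 (-1.43 to -0.01) between the knockouts.

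The summed lipogenic transcripts differed between knockouts through 1 library. Fatty acid synthesis genes took 7.95%, 8.36% and 8.37% of counts in Hete KO, 4.37%, 8.48% and 9.36% in Homo KO and 3.37% to 5.88% in WT. Homo KO 2 and Homo KO 3 were above all 3 heterozygotes, and Homo KO 1 was below them. Scd1, the stearoyl-CoA desaturase, made up most of that, at 70110, 74990 and 76590 CPM in Hete KO compared with 39480, 77470 and 85580 in Homo KO. Acaca, acetyl-CoA carboxylase, read 992, 1361 and 1047 CPM in Hete KO against 480.0, 934 and 969 in Homo KO, at -0.51 (95% interval -1.08 to 0.05). Homo KO 1 was the lowest library in both, but for Acaca all 3 Homo KO libraries were below the 3 Hete KO libraries. In the list, 2 of 18 genes had no overlap between the knockouts, beside 11.4% of all tested genes. Of 18 genes 14 were negative with a median of -0.23, and without Homo KO 1 the median was -0.10 with 6 of 18 positive. The library with the most endothelial transcripts was thus also the one with the least lipogenic transcripts among the knockouts, and the part of tissue composition in either was not tested.

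**Figure D5:**
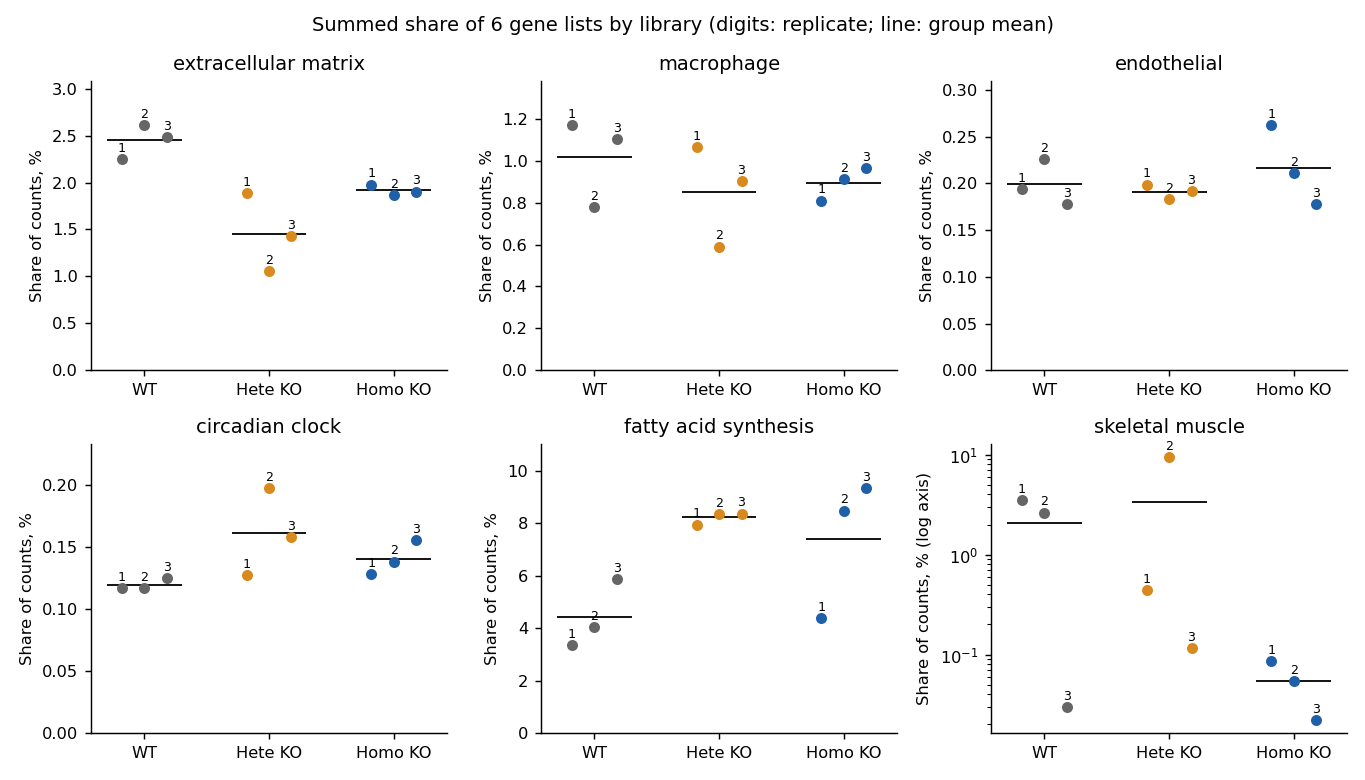
Share of all counts, in percent, taken by gene lists in each of the 9 libraries, with points for libraries (digits give the replicate), lines for group means and a log axis for skeletal muscle alone. Skeletal muscle stands out in Hete KO 2 at 9.51%, endothelial genes in Homo KO 1 at 0.262%, and fatty acid synthesis is low in Homo KO 1 at 4.37%.

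Of 13 protein-coding genes of the mitochondrial genome, 10 were lower in Homo KO, with a median of -0.25 and 0 at an unadjusted p below 0.05. mt-Atp6, a subunit of ATP synthase, read 2365, 3101 and 3174 CPM in Hete KO, 2162, 1463 and 2030 in Homo KO and 2223, 835 and 1672 in WT. The nuclear genes of the respiratory chain had a median of -0.11, and 0.01 without Hete KO 2. Circadian clock genes were lower in Homo KO in 17 of 19, with a median of -0.28, and -0.09 without Hete KO 2. Cry1, a repressor of the clock, read 7.27, 11.6 and 7.20 CPM in Hete KO, 5.84, 4.56 and 6.90 in Homo KO and 8.89, 9.30 and 8.63 in WT. It was the 1 clock gene with an unadjusted p below 0.05, and without Hete KO 2 there were 0 of 19. Since the hour of sampling is not given, clock time and genotype cannot be told apart.

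Cell cycle genes had a median of 0.25 with 17 of 22 positive, and 0.06 without Hete KO 2. Insulin signalling, cholesterol synthesis and heat shock genes had medians of -0.02, 0.05 and 0.04, with 0 of 20, 0 of 24 and 0 of 20 at an unadjusted p below 0.05. Without Hete KO 2 these medians took the opposite sign, at 0.02, -0.11 and -0.03, with 8 of 24 cholesterol synthesis genes positive. Among all 34 lists, 0 members passed the adjusted threshold in this comparison with edgeR, and the counts given at an unadjusted p have that as their limit.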

How the data were processed

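Bulk RNA-seq of subcutaneous fat was read from 9 per-transcript tables, each with the estimated counts and TPM values that the authors deposited. The reads had been set against mm10 per the submitters' processing notes, and the quantification program is not given in the sources used here. Per the labels' protocols, total RNA was extracted with Trizol. Transcript values were summed to genes with GENCODE M21 (GRCm38), which matched 111362 of 113193 transcripts (98.38%). The unmatched ones held 0.581% to 1.06% of a library's counts.

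The summed estimated counts, between 20843427 and 28252001 per library as deposited, were rounded to whole numbers and tested with edgeR 4.0.16 in R 4.3.3: TMM scaling over 9 libraries, default filter on low counts, quasi-likelihood test with 1 coefficient per genotype, 6 residual degrees of freedom and Benjamini-Hochberg adjustment over 17968 genes at 0.05. Homo KO minus Hete KO and the mean of both minus WT were tested in this fit, log2 differences used a prior count of 0.125, and 95% intervals used the fit's t distribution. CPM values were divided by TMM-scaled library sizes. Limma 3.58.1 on log2(TPM + 0.5) and on log2(TPM + 0.1), DESeq2 1.42.0, other scalings and filters, and each library left out were alternatives, 21 in all. The code was tested on simulated counts.

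The genes and the 34 gene lists were chosen with earlier results of these data known. The genes named were the Argonautes, 8 genes of browning, vessels and adipokines, 8 genes a direction by smallest p in each contrast with at least 1 CPM (between the knockouts, with non-overlapping libraries), and members of the lists, of which up to 3 with the smallest p. A gene named by this rule is not reported here. Predicted genes were left out, except where named as chosen afterwards. Other list members given in the text (Dcn, Drosha, Dicer1, Tnrc6c, Scd1, Acaca, Col12a1 and mt-Atp6 among them) were named for their role or position in the list. Samples were grouped by their labels, and no sample was left out of the main results.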

Additional observations from a re-analysis of the deposited data

How the results depend on the processing

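The edgeR count of 0 genes between Homo KO and Hete KO stayed at 0 under each alternative run with edgeR or limma, and DESeq2 gave 8. The count at an unadjusted p below 0.05, 978, ranged from 454 to 1857 with single libraries left out. The 421 genes of the knockouts against WT became 759 with no filter on low counts, 1838 with DESeq2, 12 and 6 with limma at the larger and the smaller pseudocount, 102 without WT 1, WT 2 and Hete KO 2, and 2 to 1095 with single libraries left out. The cause of these shifts was not tested. The 318 of these 421 genes with Hete KO further from WT, a count chosen after seeing the data, ranged from 266 to 337 over the alternatives.

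Ago1 ranged from -0.44 to 0.074 with single libraries left out and was above 0 only without Homo KO 3. Ago4 turned to -0.081 and -0.087 with limma at the larger and the smaller pseudocount. With the muscle list's level as a covariate, Ucp1 was 3.53, Ppargc1a 0.17, Cidea 0.45, Ass1 -0.12, Adipoq -0.32 and Nnat -0.10. Without WT 1, WT 2 and Hete KO 2, Ucp1 was 1.26, Ppargc1a 0.15, Cidea 0.24, Ass1 -0.19 and Adipoq -0.062. With single libraries left out, Ucp1 ranged from -2.01 to 1.25, Ppargc1a from -0.35 to 0.16, Cidea from -0.58 to 0.25, Ass1 from -0.18 to 0.44, Scd1 from -0.35 to 0.13, Adipoq from -0.050 to 0.12, Nnat from -0.17 to 0.19 and Col12a1 from -0.87 to 0.19. The cause of these sign changes was not tested.

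With the replicate number as a block, Homo KO against Hete KO gave 0 genes by edgeR and 859 at an unadjusted p below 0.05, the knockouts against WT gave 487, and Ago1 was -0.28. Same-numbered libraries did not all deviate together: the correlations of their deviations from the group means, for numbers 1, 2 and 3, were -0.072, -0.024 and 0.0003 between Homo KO and Hete KO, -0.0033, 0.22 and 0.46 between Hete KO and WT, and 0.047, 0.062 and 0.105 between Homo KO and WT. Not every library correlated best with its own number, and Hete KO 2 did so with WT 1 (0.25). The numbers were therefore not taken to pair the libraries.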
